A study of Mus musculus with 8 samples.

Results

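The cells described here are the epithelial cells of control mouse back skin at embryonic day 13 (E13) and embryonic day 15 (E15), chosen by their RNA. A cell passed when it had at least 1000 detected genes, at most 10% of its UMIs (unique molecular identifiers, the counted RNA molecules) from mitochondrial genes, and at least 1 UMI of at least 4 of 12 epithelial genes. The 12 genes were the adhesion and junction genes Epcam, Cdh1, Cldn6, Cldn7 and Lsr, the membrane protease Prss8 and the protease inhibitor Spint1, the splicing regulators Esrp1 and Esrp2, the transcription factor Grhl2, and the transport genes Rab25 and Ap1m2. The members were thus chosen by measured values of these libraries. The rule found 377 cells among the 3377 control cells that passed the filter, and 7486 cells passed in the whole series. Of the 377 cells, 165 came from the E13 wild-type (WT) library, 155 from the E13 heterozygous (HET) library, 36 from the E15 WT library and 21 from the E15 HET library. The labels give the HET genotype as ΔNp63-GFP KI-Het, a heterozygous knock-in, and the KO genotype as ΔNp63-GFP KI-KO. ΔNp63 is the form of the transcription factor p63 (gene Trp63) made in basal epidermis. The series has 1 WT, 1 HET and 2 KO libraries at each age, from skin dissociated with collagenase and trypsin and counted with a 10x 3′ kit. WT and HET together form the control arm, so each age has n = 2 control libraries, and genotype and library cannot be told apart within an age. The labels do not say how many embryos went into a library or whether they were separate litters, so every p-value measures only the spread between these libraries.

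The epidermis begins as a single layer of basal cells on a basement membrane, marked by Krt5 and Krt14. Daughter cells leave this layer, switch to Krt1 and Krt10 as spinous (suprabasal) cells, and later build granular and cornified layers from envelope proteins and lipids that seal the skin against water loss. Between these ages the back skin of the mouse also forms hair placodes, patches of basal epithelium directed by Wnt, Eda, FGF, BMP and Hedgehog signals.

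The chosen cells carried the defining RNAs of epidermis. Their label was checked with Krt5, Krt14 and Krt10, since Epcam and Cdh1 belong to the rule. Before any thinning, all 165 E13 WT cells, all 155 E13 HET cells, 35 of 36 E15 WT cells and all 21 E15 HET cells had a Krt14 UMI, against 70.4%, 54.2%, 75.0% and 76.7% of cells with none of the 12 genes (marker-negative cells) in the same libraries. Median depth was 30169, 29097, 18120 and 21733 UMIs per chosen cell, and 16143, 14655.5, 13223.5 and 13522 UMIs per marker-negative cell. The marker-negative share is read as a background level, since those cells had Krt14 at only 50.8 to 120.4 CPM (counts per 1000000 UMIs of the summed cells) and the chosen cells at 897 to 2420 CPM. The 12 rule genes describe the choice and carry no test. In the order E13 WT, E13 HET, E15 WT and E15 HET, which holds for every set of 4 values below, Epcam stood at 272.5, 253, 197 and 404 CPM and Rab25 at 23.4, 13.2, 382 and 189 CPM. Cldn6 stood at 75.7, 72.8, 2.66 and 7.35 CPM.

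At the limit of the rule, 23, 21, 12 and 2 cells had exactly 4 rule genes and 15, 26, 11 and 10 cells had exactly 3. Krt14 was 1954, 802, 3796 and 4947 CPM in the cells just inside and 651, 188, 5899 and 398 CPM in those just outside. Col1a1, a fibroblast collagen, was 57.9, 289, 219 and 192 CPM just inside and 767, 590, 192 and 3201 CPM just outside. The cells just outside therefore had less Krt14 than those just inside in each library except E15 WT, where they had more. Krt10 was 37.8, 30.8, 1898 and 48.0 CPM just inside and 30.5, 30.6, 423 and 296 CPM just outside. In cells with 5 or more rule genes it was 82.3, 71.7, 15425 and 2933 CPM. How far the rule shapes the share of cells with high Krt10 at E15 was not tested.

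Facts of the whole set bear on all that follows. The libraries held 8177867 to 26456164 UMIs each, and the summed chosen cells held 6582533, 6453915, 750814 and 544113 UMIs, so the E15 values rest on fewer molecules. No 2 libraries shared more than 6 cell barcodes. Both E13 libraries expressed Xist and both E15 libraries expressed Y-linked genes, so age and sex cannot be told apart, and only autosomal genes were tested. Among the chosen cells, 7 of E13 HET and 1 of E15 WT had under 500 CPM of Krt5, Krt14, Krt15, Krt1 and Krt10 together. They held 5.69% and 7.26% of their library's summed UMIs, and the anchoring, fetal growth, endothelial, fibroblast, mural and neuron counts below are given with and without these low-keratin cells.

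Across the 10493 autosomal genes tested, 586 rose from E13 to E15 (5.58%) and 232 fell (2.21%) at an adjusted p under 0.05. The test was edgeR's quasi-likelihood F test on summed counts with Benjamini-Hochberg adjustment over all genes tested, as for every adjusted p below, and log2 fold changes are E15 over E13 with an SE derived from the test. At an unadjusted p under 0.05 there were 1488 higher and 1218 lower genes. The counts depended on the libraries: without E15 HET the test called 1093 higher and 797 lower, and without E13 WT it called 416 and 102. The median log2 fold change over all genes tested was -0.02, beside which each group's median below can be read. In summed cells, more cells of a type and more RNA per cell cannot be told apart.

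**Figure D1:**
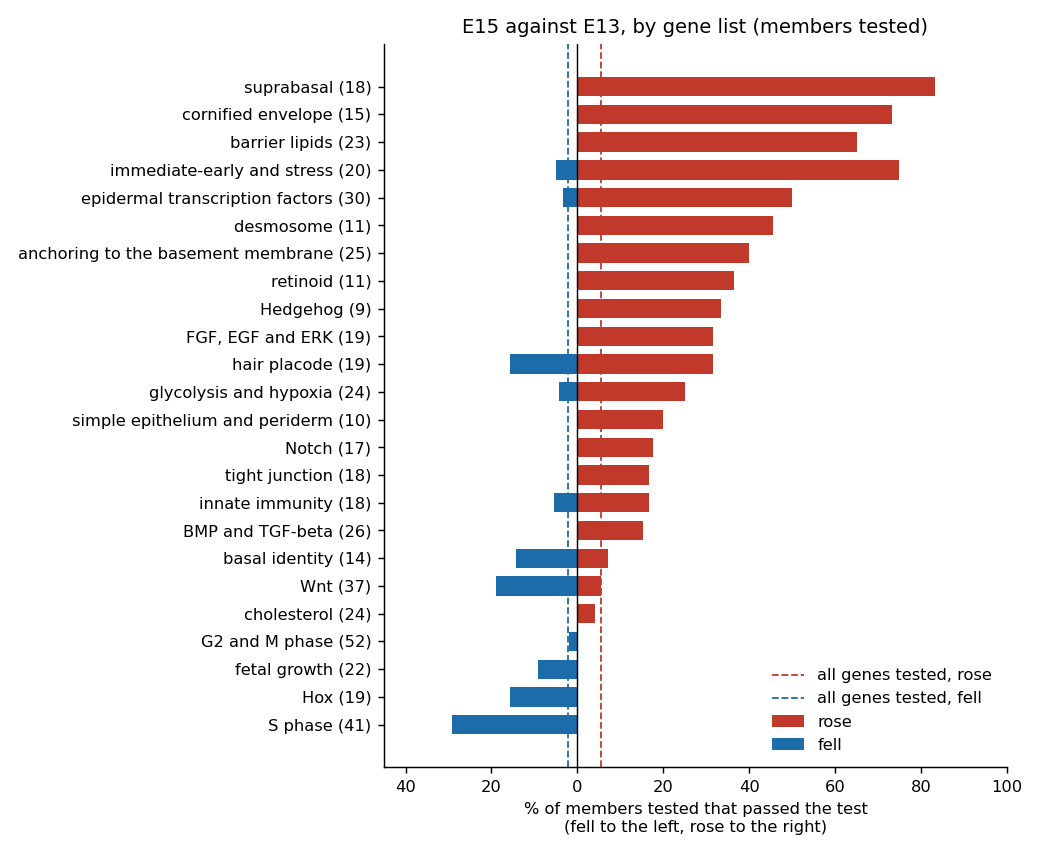
Share of each gene list's tested members that rose (to the right) or fell (to the left) from E13 to E15 in control epithelial cells, in percent, with the number of members tested beside each list's name. The dashed lines mark the share of all 10493 genes tested, 5.58% rising and 2.21% falling. Among tested members, the suprabasal, cornified envelope and barrier lipid lists and the immediate-early and stress list had the highest shares rising. The S phase list had the highest share falling. A filter on low counts admits a gene that is high at E15 alone and near absent at E13. The shares and their order therefore describe the tested members and not the whole lists.

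The basal keratins and Trp63 were present at both ages, and none of these 3 genes passed the test with all 4 libraries. Krt14, the basal type I keratin, stood at 1814, 978, 2420 and 897 CPM, and the ages overlapped (log2 fold change 0.41 ± 0.47, edgeR adjusted p = 0.63). Its partner Krt5 stood at 805, 308, 1319.9 and 878 CPM, with both E15 libraries above both E13 libraries, and did not pass (1.13 ± 0.42, edgeR adjusted p = 0.15). Trp63 stood at 143, 85.4, 188 and 116 CPM, with the 2 WT libraries above the 2 HET libraries (0.57 ± 0.32, edgeR adjusted p = 0.31). These results turned on single libraries. Without E13 WT, Krt5 passed (1.99, edgeR adjusted p = 8.8e-07) and so did Krt14 (0.92, edgeR adjusted p = 0.029). Without E15 HET, Krt5 (1.44, edgeR adjusted p = 0.0052), Krt14 (0.99, edgeR adjusted p = 0.0056) and Trp63 (0.91, edgeR adjusted p = 0.018) passed. The labels give the HET embryos 1 altered Trp63 allele, and this order of WT above HET was not tested. Of the 14 basal identity genes tested, 1 rose and 2 fell, with a median log2 fold change of -0.15. Ass1, an enzyme of arginine synthesis, rose from 33.3 and 34.6 CPM to 141 and 108 CPM.

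Igfbp2, a secreted binding protein of insulin-like growth factors, and the ligand Wnt3 were the 2 of these genes that fell. Igfbp2 stood at 897, 616, 101 and 33.1 CPM, with a clear gap between the ages (log2 -3.29 ± 0.45, edgeR adjusted p = 0.0072). Wnt3 stood at 87.7, 78.7, 18.6 and 22.1 CPM.

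The spinous programme rose steeply. Krt10 stood at 79.6, 68.8, 11390.3 and 2823 CPM (log2 6.74 ± 0.70, edgeR adjusted p = 0.0027). Krt1, its type II partner, stood at 36.8, 23.1, 7986 and 1316 CPM (7.45 ± 0.92, edgeR adjusted p = 0.005). Both E15 libraries were far above both E13 libraries, and E15 WT was above E15 HET in both genes. Krt77, another suprabasal type II keratin, rose from 0.76 and 0.775 CPM to 432 and 309 CPM, so the 2 E15 libraries were closer to each other in this gene. Of 24 listed suprabasal genes 18 were tested, 15 rose, none fell, and the median log2 fold change was 6.67. Cryab, Endou and Pvrl4 were the 3 tested members that did not pass. A filter on low counts admits a gene that is high at 1 age alone, so these counts describe the tested members and not all 24.

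**Figure D2:**
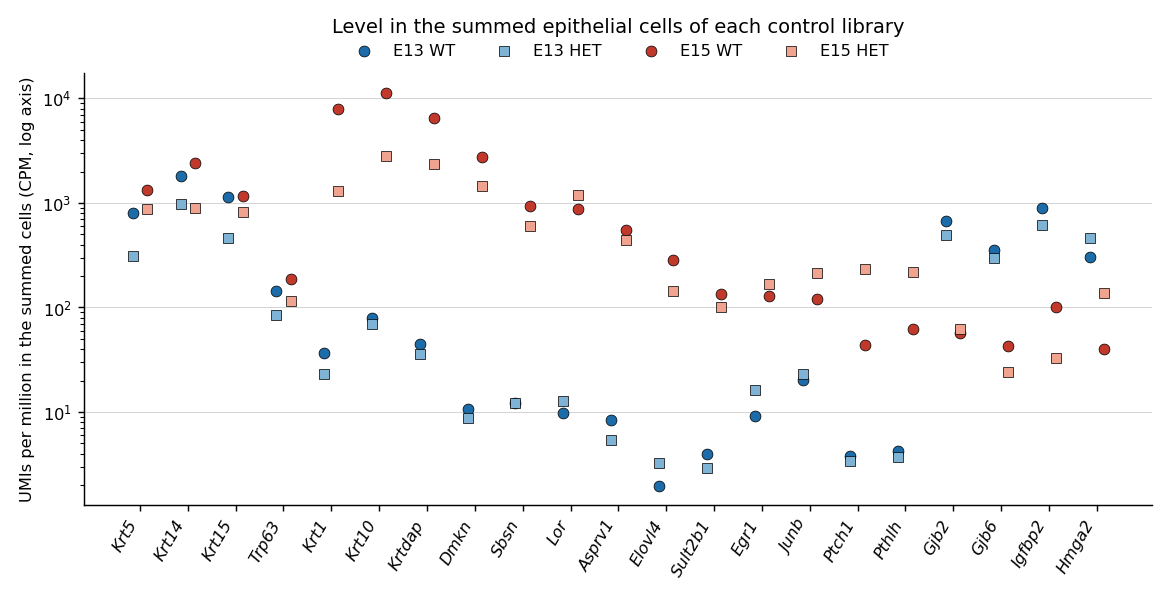
Level of 21 genes in the summed epithelial cells of each control library, in CPM on a log axis, with E13 in blue, E15 in red, WT as circles and HET as squares. The 4 basal genes on the left overlap or lie close between the ages, Krt1 to Pthlh sit higher at E15 in both libraries, and the genes from Gjb2 to Hmga2 sit lower at E15.

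In single cells the rise lay in a range of Krt1 and Krt10 that no E13 cell reached. No E13 cell of 320 had 0.2% or more of its UMIs in Krt1 and Krt10 together, whereas 20 of 36 E15 WT cells (55.6%) and 5 of 21 E15 HET cells (23.8%) did. These are called suprabasal cells below, and the name stands for a range of this measure. The highest Krt10 level in an E13 cell was 10.99 UMIs per 10000 in WT and 9.53 in HET. The median of the suprabasal E15 cells was 202 in WT and 160 in HET, and the lowest was 11.8. The highest Krt10 in any other E15 cell was 2.88, so no E15 cell lay between these values. Those suprabasal cells had median Krt14 of 2.73 and 1.37 UMIs per 10000, against 18.2 and 7.70 in the other E15 cells of the same libraries. The E13 medians of Krt14 were 18.45 and 10.99. The highest Krt14 of a single cell was 56.4 at E13 and 261.5 at E15, the latter in a WT cell outside the suprabasal range.

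**Figure D3:**
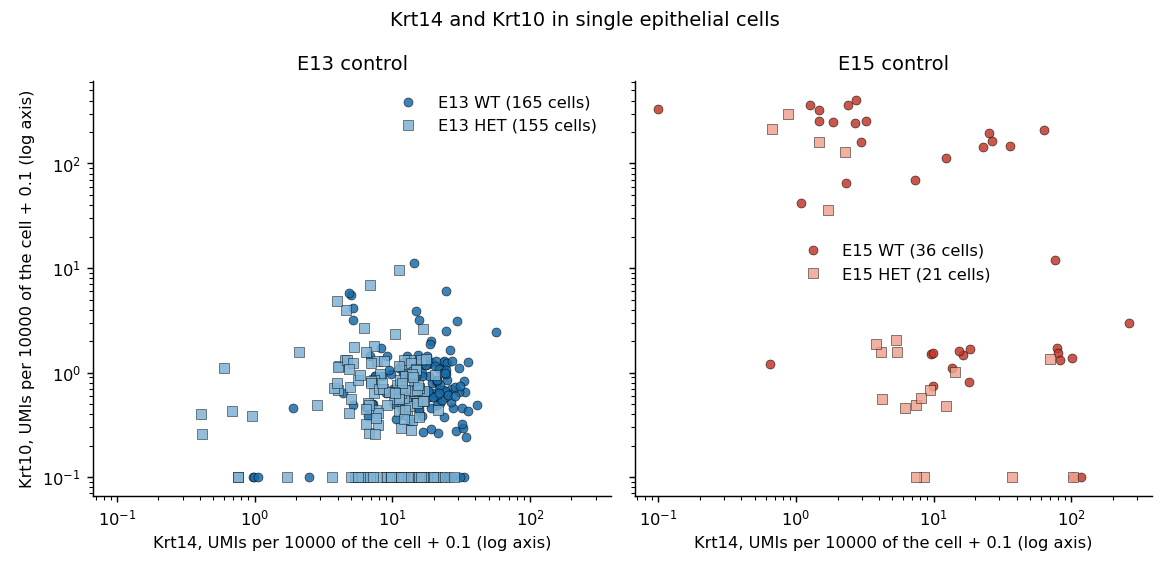
Krt14 (horizontal) and Krt10 (vertical) in each epithelial cell, in UMIs per 10000 of the cell plus 0.1, both on log axes, for 165 and 155 cells at E13 and 36 and 21 cells at E15. No E13 cell lies above 10.99 UMIs of Krt10 per 10000, and the E15 cells fall into an upper cluster, of mostly lower Krt14, and a lower cluster with Krt10 of at most 2.88.

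With every cell thinned to 5000 UMIs, a Krt10 UMI was found in 27.9% and 21.9% of chosen cells at E13 and 75.0% and 47.6% at E15. The marker-negative cells gave 11.6%, 12.6%, 41.0% and 29.9%, so part of these shares lies at the level of background, which itself was higher at E15. Krtdap, a secreted peptide of differentiating keratinocytes, had a UMI in 5.45%, 7.74%, 97.2% and 81.0% of chosen cells and in 1.37%, 0.943%, 42.3% and 31.7% of marker-negative cells. Krt14 was found in 98.8%, 92.9%, 88.9% and 90.5% of chosen cells. All chosen control cells, all E13 marker-negative cells, and 300 of 324 and 479 of 493 E15 marker-negative cells were deep enough for this. Without thinning the shares of chosen cells were 75.8%, 69.7%, 94.4% and 81.0% for Krt10 and 15.8%, 20%, 100% and 100% for Krtdap. With 2 libraries at each age the exact permutation test cannot go below p = 0.3333, and no p is given for shares.

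When the cells with 0.2% or more of their UMIs in Krt1 and Krt10 were left out, Krt10 rose no longer by the test (log2 0.56, edgeR adjusted p = 0.21), which the choice of those cells fixes. The suprabasal list then had 5 of 14 tested members rising. Dmkn (6.50, edgeR adjusted p = 3.9e-06) and Krtdap (4.26, edgeR adjusted p = 0.0002) were among those that still passed. Calm4, a calmodulin-like protein of differentiating keratinocytes, still passed too (edgeR adjusted p = 0.0033), as did Ly6d (edgeR adjusted p = 0.00029). In these 4 genes the E15 cells outside the suprabasal range also differed from E13 cells. Krtdap was also higher at E15 in marker-negative cells. Its rise outside the suprabasal range was smaller than theirs (difference in log2 of -1.495). The part of background RNA in these 4 genes was not tested.

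Some suprabasal genes were close to absent at E13. Calm4 had 2 UMIs in all E13 cells and 1085 at E15, a ratio of 5462 per total UMIs (95% interval 1508 to 45155, exact, counting error only). Ly6g6c had 2 and 345 UMIs, a ratio of 1737 (477 to 14397). Such intervals cover counting error alone. Ly6d, a surface protein of the Ly6 family, stood at 0.304, 0.465, 1448 and 229.7 CPM, so it was high in both E15 libraries and highest in WT.

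Sbsn, Dmkn and Krtdap encode small secreted proteins of the suprabasal layers and lie one after the other on the plus strand of chromosome 7, within 39.6 kb (GRCm38, 30751471 to 30791097). They and Krt1 were singled out after their values were seen. Sbsn stood at 12.3, 12.1, 934 and 603 CPM (log2 6.12 ± 0.31, edgeR adjusted p = 0.00022). Dmkn stood at 10.6, 8.68, 2774 and 1463 CPM (7.92 ± 0.41, edgeR adjusted p = 0.00025), and Krtdap at 44.5, 36.1, 6505 and 2363 CPM (6.94 ± 0.55, edgeR adjusted p = 0.0009). All 3 neighbours were low in both E13 libraries and high in both E15 libraries, with WT above HET. The sequences show the 250 bases before the RefSeq start of these 3 genes and of Lor, from the RefSeq table for GRCm38.p6. These 4 windows were picked because each holds 1 match to the AP-1 motif. All 4 genes rose, but Lor had HET above WT at E15. The windows are chr7:30751221-30751470, chr7:30763506-30763755 and chr7:30787655-30787904 on the plus strand and chr3:92083143-92083392 on the minus strand. They are written 5′ to 3′ with the last base next to the start, and capitals mark matches to the AP-1 motif TGANTCA and the TATA box TATAAA.
Sbsn: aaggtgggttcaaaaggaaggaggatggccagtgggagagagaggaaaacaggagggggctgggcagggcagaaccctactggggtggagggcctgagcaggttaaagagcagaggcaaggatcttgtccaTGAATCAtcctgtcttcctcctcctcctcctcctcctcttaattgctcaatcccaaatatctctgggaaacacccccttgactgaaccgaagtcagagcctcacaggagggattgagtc
Dmkn: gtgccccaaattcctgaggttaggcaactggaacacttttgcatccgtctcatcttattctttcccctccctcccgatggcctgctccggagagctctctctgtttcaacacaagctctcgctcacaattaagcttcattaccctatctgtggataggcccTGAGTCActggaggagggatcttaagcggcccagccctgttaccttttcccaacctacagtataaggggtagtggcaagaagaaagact
Krtdap: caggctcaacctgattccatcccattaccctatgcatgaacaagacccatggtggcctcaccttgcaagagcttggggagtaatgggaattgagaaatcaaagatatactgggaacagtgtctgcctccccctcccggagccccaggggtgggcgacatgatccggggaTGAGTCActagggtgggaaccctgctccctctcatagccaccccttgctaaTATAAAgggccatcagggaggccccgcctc
Lor: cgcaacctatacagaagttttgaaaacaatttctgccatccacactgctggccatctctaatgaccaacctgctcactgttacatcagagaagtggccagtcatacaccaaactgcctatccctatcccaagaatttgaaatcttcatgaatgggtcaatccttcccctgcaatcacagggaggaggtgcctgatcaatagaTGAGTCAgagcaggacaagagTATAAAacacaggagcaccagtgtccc

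The AP-1 match began 119 bases before the start in Sbsn, 89 in Dmkn, 81 in Krtdap and 48 in Lor, and Krtdap and Lor also had TATAAA at 30 and 27 bases before it. The AP-1 motif (TGANTCA), the TATA box (TATAAA), the CCAAT box (letters CCAAT) and a Grainyhead-type motif (letters AACNGGTT) were searched on both strands, and no matches overlapped in these 4 windows. A window could be assigned to 8010 of the 10493 tested genes, and 3.58% of those held TGANTCA. The share was 8.84% of the 430 windows of genes that rose and 4.44% of the 180 windows of genes that fell. By list, TGANTCA was in 3 of 11 suprabasal, 4 of 12 cornified envelope and 0 of 19 barrier lipid windows. TATAAA was in 5.73% of all windows, 10.5% of those that rose and 5.56% of those that fell. CCAAT was in 36.7%, 33.5% and 38.3%, and the Grainyhead-type motif was in 1.61%, 2.09% and 1.67%. A match is a description of letters in these windows and not a bound site.

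Some cornified envelope genes had already begun to rise at E15. Lor encodes loricrin, the main protein of the envelope, and stood at 9.72, 12.9, 872 and 1184 CPM, with E15 HET the highest (log2 6.63 ± 0.26, edgeR adjusted p = 0.0001). Asprv1, a protease of the granular layer, stood at 8.36, 5.42, 549 and 441 CPM (6.30 ± 0.29, edgeR adjusted p = 0.00017). Both genes had E15 libraries close to each other. Cnfn (cornifelin) had no UMI in the E13 cells and 116 at E15, at least 389-fold higher when 3 counts over the group are taken as the floor. Hrnr (hornerin) had 1 and 73 UMIs, a ratio of 735 (95% interval 128 to 29420.2). Of 54 cornified envelope genes in the file, 15 were tested, 11 rose and none fell, with a median log2 fold change of 3.34. When suprabasal cells were left out, 8 members were tested and 2 of them rose. Of the 80 genes of the epidermal differentiation complex, the cluster on chromosome 3 (90511034 to 93564643, GRCm38) that holds Lor and Hrnr, 15 were tested, 8 rose and none fell. As for the suprabasal list, the filter on low counts admits genes high at 1 age alone, so both counts describe only the tested members.

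Most of the tested genes for lipids of the barrier rose. Of 29 listed genes 23 were tested, 15 rose and none fell, with a median log2 fold change of 2.01. The same limit of the low-count filter applies to this count. Elovl4, which lengthens fatty acids for the ceramides of the barrier, stood at 1.97, 3.25, 286 and 143 CPM (6.51 ± 0.45, edgeR adjusted p = 0.00057). Sult2b1, which makes cholesterol sulfate, stood at 3.95, 2.94, 133 and 101 CPM (5.22 ± 0.28, edgeR adjusted p = 0.00025). E15 was above E13 by more than the spread between libraries in both. Dgat2, an enzyme of triglyceride synthesis, stood at 3.49, 2.17, 108 and 64.3 CPM. Acer1, a ceramidase of the epidermis, had no UMI at E13 and 103 at E15, at least 346-fold higher by the same floor. With suprabasal cells left out, 1 of 18 tested members rose, and Sult2b1 (0.65, edgeR adjusted p = 0.77) and Dgat2 (0.50, edgeR adjusted p = 0.8) did not pass. Of 24 cholesterol synthesis genes 1 rose, Mvk, which without suprabasal cells had a log2 value of -0.13. It did not pass without E13 WT (edgeR adjusted p = 0.088) or without E13 HET (edgeR adjusted p = 0.055).

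Transcription factors of the epidermis mostly rose or did not pass. Of 30 tested, 15 rose, 1 fell and 14 did not pass, with a median log2 fold change of 1.32. Klf4, a factor needed for the skin barrier, stood at 21.3, 19.1, 269 and 107 CPM (3.40 ± 0.41, edgeR adjusted p = 0.0048). Grhl1, a Grainyhead factor, stood at 4.41, 6.66, 73.3 and 29.4 CPM, and like Klf4 was higher in E15 WT than in E15 HET. Runx1 had the opposite order, at 2.73, 2.63, 29.3 and 123 CPM (4.86 ± 0.62, edgeR adjusted p = 0.0055). Sox9, a factor of hair follicle epithelium, stood at 12.6, 10.5, 21.3 and 200.3 CPM and did not pass without E15 HET (1.07, edgeR adjusted p = 0.076). Satb1, a chromatin organiser, was the 1 factor that fell, from 133 and 135 CPM to 74.6 and 62.5 CPM (-0.82 ± 0.20, edgeR adjusted p = 0.049). Satb1 kept its call in 7 of 19 alternative settings. It did not pass without the low-keratin cells, without E13 WT (edgeR adjusted p = 0.36) or without E13 HET (edgeR adjusted p = 0.42).

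Some adhesion genes rose, in the desmosome, tight junction and basement membrane lists. Of 11 desmosome genes 5 rose and none fell, with a median log2 fold change of 1.90. The cadherin Dsg1a stood at 1.22, 0.93, 157 and 36.8 CPM and the cadherin Dsc3 at 11.1, 5.73, 226 and 77.2 CPM. Desmoplakin (Dsp), which links them to keratin, stood at 115, 103, 639 and 323 CPM (2.30 ± 0.33, edgeR adjusted p = 0.0088). Perp, a membrane protein of desmosomes, stood at 605, 497, 2692 and 1470.3 CPM. All 4 were higher at E15 in both libraries, with WT above HET. Of 18 tight junction genes 3 rose, among them F11r, from 43.8 and 32.4 CPM to 66.6 and 93.7 CPM, which did not pass without E13 HET (edgeR adjusted p = 0.24).

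Of 25 genes that anchor basal cells to the basement membrane, 10 rose and none fell (median log2 1.08), and 9 rose without the low-keratin cells. Col17a1, a hemidesmosome collagen, stood at 18.1, 15.8, 75.9 and 139.7 CPM (2.76 ± 0.28, edgeR adjusted p = 0.0025). Plec, the plakin that ties hemidesmosomes to keratin, stood at 37.1, 34.4, 94.6 and 108 CPM. Both genes had E15 HET above E15 WT, the reverse of the desmosome genes. With suprabasal cells left out, 11 anchoring genes rose and Col17a1 had a log2 fold change of 3.32 (edgeR adjusted p = 9.1e-05).

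Several hair placode and Hedgehog genes rose, with their highest values in the E15 HET library. Of 19 hair placode genes tested 6 rose and 3 fell, with a median log2 fold change of 0.76. Lef1 and Wnt10a, given below with the Wnt genes, were among those that fell. Of 9 Hedgehog genes 3 rose, among them Ptch1 and Gli1. Ptch1, the Hedgehog receptor and a target of the pathway, stood at 3.80, 3.41, 43.95 and 233 CPM (5.30 ± 0.70, edgeR adjusted p = 0.0062). It was several times higher in E15 HET than in E15 WT and lowest at E13. Ptch1 was also at 73.4 and 67.6 CPM in the E15 marker-negative cells. Pthlh, a peptide hormone made by placodes, stood at 4.25, 3.72, 62.6 and 217 CPM (5.19 ± 0.55, edgeR adjusted p = 0.0029). Lhx2, a placode transcription factor, had 1 UMI at E13 and 73 at E15, a ratio of 735 (95% interval 128 to 29420.2), and was at 0.678 and 1.36 CPM in the E15 marker-negative cells.

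With each cell thinned to 5000 UMIs, a Ptch1 UMI was found in 19.4% of chosen E15 WT cells and 47.6% of chosen E15 HET cells, against 26.3% of marker-negative cells in each library. The WT share was thus below that of the marker-negative cells, and whether their Ptch1 is background or their own was not tested. Lhx2 was found in 2.78% and 14.3% of chosen cells (1 of 36 and 3 of 21) and in 0 of 300 and 0.626% of marker-negative cells. Without thinning, Ptch1 was in 36.1% and 61.9% and Lhx2 in 2.78% and 38.1% of chosen cells. With 1 library of each genotype these shares carry no test. Krt17, a keratin of placodes and periderm, stood at 192, 58.9, 822 and 1761 CPM (3.48 ± 0.57, edgeR adjusted p = 0.014). At 5000 UMIs per cell it was found in 26.7%, 20%, 44.4% and 100% of chosen cells and in 2.51%, 1.42%, 9.67% and 22.1% of marker-negative cells. Without thinning, 70.9%, 54.8%, 63.9% and 100% of chosen cells had one. Of 10 genes of simple epithelium and periderm tested, Krt17 among them, 2 rose and none fell, but those 2 were the only members with a value above 0 and the median log2 fold change was -1.88.

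Wnt genes fell more often than they rose, 7 against 2 of 37 tested (median log2 -0.26). The share that fell was 18.9%, against 2.21% of all genes tested. The share that rose was 5.41%, near the 5.58% of all genes tested. The ligands Wnt4 (204, 179, 55.9 and 66.2 CPM), Wnt7b (133, 101, 41.3 and 29.4 CPM) and Wnt10a (116, 69.1, 22.6 and 18.4 CPM) all had both E15 libraries below both E13 libraries. Lef1, a nuclear partner of beta-catenin, stood at 206, 182, 63.9 and 80.9 CPM (-1.30 ± 0.19, edgeR adjusted p = 0.01), with an edgeR adjusted p = 0.053 without E13 WT. In marker-negative cells Lef1 was 61.5, 64.2, 60.3 and 68 CPM, without such a step. Lgr6, a receptor for R-spondins, was 1 of the 2 that rose, at 2.13, 8.99, 23.97 and 79.03 CPM.

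Other signalling lists gave smaller counts, to be read beside the 5.58% of all genes tested that rose and the 2.21% that fell. In the FGF, EGF and ERK list 6 of 19 rose, among them the ERK phosphatase Dusp6 (14.1, 15.5, 55.9 and 97.4 CPM) and Fgfbp1 (145, 126, 297 and 204 CPM). Fgfbp1 did not pass without E13 WT (1.14, edgeR adjusted p = 0.072) or without E13 HET (0.97, edgeR adjusted p = 0.17). The receptor Fgfr1 (11.8, 17.8, 27.97 and 220.5 CPM) rested on E15 HET and did not pass without it (1.102, edgeR adjusted p = 0.066). In the BMP and TGF-beta list 4 of 26 rose (15.4%), in the Notch list 3 of 17 (17.65%) and in the retinoid list 4 of 11 (36.4%). Rdh12, a retinol dehydrogenase, stood at 1.97, 0.93, 78.6 and 42.3 CPM (5.52 ± 0.46, edgeR adjusted p = 0.0012). Nrarp, a Notch target, stood at 68.1, 61.98, 108 and 97.4 CPM and kept its call in 9 of 19 alternative settings. Its edgeR adjusted p = 0.36 without E13 WT, 0.47 without E13 HET and 0.055 without E15 WT. In the glycolysis and hypoxia list 6 of 24 rose and 1 fell. Ndrg1 stood at 7.75, 8.21, 94.6 and 90.1 CPM, close in both libraries of each age (3.67 ± 0.21, edgeR adjusted p = 0.00039), and the neuronal-type glucose transporter Slc2a3 fell from 109 and 85.2 CPM to 2.66 and 1.84 CPM. It had 3 UMIs at E15, a ratio of E13 to E15 of 41.9 (95% interval 14.3 to 203). Innate immunity genes gave 3 rises and 1 fall among 18, the fall being Ifitm3 (760.5, 606, 288 and 371 CPM), which did not pass without E13 WT (-0.75, edgeR adjusted p = 0.29).

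Immediate-early and stress genes rose strongly, 15 of 20 with 1 fall and a median log2 fold change of 2.22. Egr1 stood at 9.12, 16.1, 129 and 167 CPM (3.67 ± 0.30, edgeR adjusted p = 0.001). Junb, a subunit of AP-1, stood at 20.1, 22.9, 121 and 213 CPM, and Jun at 33.1, 32.7, 165 and 342 CPM. Fos, another AP-1 subunit and singled out after its values were seen, stood at 28.1, 32.5, 154 and 154 CPM (2.48 ± 0.19, edgeR adjusted p = 0.00073). These RNAs respond to tissue dissociation as well as to growth signals. Marker-negative cells of the same libraries had a median log2 fold change of 0.80 over this list, with Fos at 238, 242, 589 and 576 CPM and Jun at 222, 168, 183 and 171 CPM. The age effect of Fos was larger in the epithelial cells than in the marker-negative cells (difference in log2 of 1.03), but not by the test without E13 WT (0.94, edgeR adjusted p = 0.22) or without E13 HET (1.15, edgeR adjusted p = 0.061). With suprabasal cells left out 12 of the 20 rose. The part of handling in these values was not tested. Hsp90aa1, a chaperone, fell from 1172 and 1127 CPM to 618 and 569.7 CPM. It did not pass without E13 WT (-0.78, edgeR adjusted p = 0.15), without E13 HET (-0.81, edgeR adjusted p = 0.12) or without suprabasal cells.

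Among cell cycle genes, the S phase list fell in 29.3% of its tested members, against 2.21% of all genes tested. The G2 and M phase list, at 1.92%, did not exceed the share of all genes. Of 41 S phase genes tested 12 fell and none rose (median log2 -0.69), and of 52 G2 and M phase genes 1 fell, Cks1b, which did not pass without E13 WT (-0.96, edgeR adjusted p = 0.1) or without E13 HET (-0.77, edgeR adjusted p = 0.27). Chaf1b, a histone chaperone subunit, stood at 86.1, 70.5, 17.3 and 22.1 CPM (-1.88 ± 0.26, edgeR adjusted p = 0.008). Ung, which removes uracil from DNA, stood at 101, 103, 33.3 and 33.1 CPM (-1.48 ± 0.21, edgeR adjusted p = 0.0076). Tyms, which makes thymidylate, stood at 214, 202, 99.9 and 55.1 CPM. In each of these the 2 ages stood apart. When suprabasal cells were left out 3 S phase genes fell, in a fit where 160 of all genes fell, against 232 with all cells. Fewer S phase genes fell without either E13 library, and more genes of both lists fell without E15 HET. The number of falls over all genes tested changed in the same directions.

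Genes of fetal growth and of position gave few calls, all of them falls. Hmga2, a chromatin protein of fetal tissues, fell from 302 and 461 CPM to 39.96 and 138 CPM (-2.04 ± 0.47, edgeR adjusted p = 0.043). Igf2bp1, a fetal RNA-binding protein, fell from 98.9 and 106 CPM to 38.6 and 40.4 CPM. Igf2bp1 did not pass without E13 WT (-1.29, edgeR adjusted p = 0.059) or without E13 HET (-1.16, edgeR adjusted p = 0.12). Of 22 fetal growth genes these 2 fell and none rose, and 5 fell without the low-keratin cells. Of 19 Hox genes 3 fell (15.8%, against 2.21% of all genes tested) and none rose. The Hox median log2 fold change was -0.89, beside -0.91 in KO cells and -1.26 in marker-negative cells. Hoxc5 stood at 74.9, 79.02, 7.99 and 1.84 CPM and Hoxa5 at 114, 106, 19.98 and 33.1 CPM. Hoxc5 also dropped in marker-negative cells, from 144 and 128 CPM to 8.58 and 13.6 CPM, whereas Hoxa5 was below 6 CPM there at both ages.

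The largest falls included 2 gap junction genes that neighbour each other on chromosome 14. Gjb2 (57098600 to 57104702, GRCm38, minus strand) stood at 675, 489, 57.3 and 62.5 CPM (-3.15 ± 0.23, edgeR adjusted p = 0.00073). Gjb6 (57123303 to 57133611, minus strand) stood at 353, 299, 42.6 and 23.9 CPM (-3.11 ± 0.29, edgeR adjusted p = 0.0016). Both connexins were several times lower in both E15 libraries, and the falls were as large without suprabasal cells (-3.07 and -3.06). A Gjb2 UMI was found in 89.1%, 79.4%, 22.2% and 19.05% of chosen cells at 5000 UMIs, and in 9.34%, 5.82%, 0.667% and 0.209% of marker-negative cells. Without thinning, 98.8%, 95.5%, 52.8% and 61.9% of chosen cells had one.

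Irx6, a homeobox gene, had 667 UMIs at E13 and 1 at E15, a ratio of E13 to E15 of 66.3 (95% interval 11.9 to 2621). Rtn1 had 868 and 3 UMIs, a ratio of 28.7 (9.80 to 140). Tmem108 had 841 and 3 UMIs, a ratio of 27.8 (9.50 to 135). Parm1 (113, 120.4, 17.3 and 14.7 CPM), Kcnip1 (55.9, 49.6, 3.996 and 9.19 CPM) and Zfhx3 (69.9, 64.3, 5.33 and 11.03 CPM) followed the same pattern. Hic1 fell from 70.2 and 103 CPM to 11.99 and 9.19 CPM and Myl9 from 57.0 and 47.6 CPM to 10.7 and 3.68 CPM. These last 2 were higher in marker-negative cells, at 136, 133, 41.1 and 39.9 CPM for Hic1 and 148, 184, 39.98 and 66.1 CPM for Myl9.

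Among the largest rises outside the lists, Gsta1, Gsta2 and Orm1 had no UMI in E13 cells. Gsta1 and Gsta2 are near-identical glutathione transferases whose reads may be shared. Gsta1 had 98 UMIs at E15, at least 329-fold higher, and Orm1, an acute-phase glycoprotein, had 100, at least 336-fold higher. Ndufa4l2, a mitochondrial protein induced by hypoxia, stood at 0.304, 0.465, 858 and 257 CPM (10.55 ± 0.84, edgeR adjusted p = 0.00092), and at 68.2 and 71.8 CPM in E15 marker-negative cells. The stefin genes Stfa3 (1.52, 0.310, 906 and 66.2 CPM) and Stfa1 (0.304, 0.155, 212 and 14.7 CPM) and BC100530 (2.43, 0.155, 1565 and 58.8 CPM) were far higher in E15 WT than in E15 HET. These 3 belong to 1 family of similar genes, so their counts may be split between copies.

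RNA of other cell types moved with some of these results. The embryonic globins Hbb-y (1019.5, 1709, 27.97 and 79.03 CPM) and Hba-x (42.99, 79.6, 1.33 and 3.68 CPM) fell. In marker-negative cells Hbb-y was 8693, 14496, 29.6 and 67.8 CPM, and the fall was smaller in the epithelial cells (difference in log2 of 3.14). The summed 8 erythroid markers stood at 3904, 6718, 2280 and 5061 CPM in the chosen cells, and the part of red cell RNA in the globin calls was not tested. In 1 E13 HET cell, a low-keratin cell, 78.05% of 15269 UMIs were haemoglobin, which adds 1847 CPM to that library, and no other chosen control cell was above 0.78%. Of 6 endothelial markers tested 5 rose, and without the low-keratin cells none did; the 8 endothelial markers summed to 45.7, 35.8, 304 and 62.5 CPM. The 12 fibroblast markers summed to 754, 1054, 1448 and 1601 CPM in the chosen cells against 6312, 5588, 16891 and 14891 CPM in marker-negative cells, and 2 of 12 rose (Col1a1 and Dcn), or 4 without the low-keratin cells. The 6 mast cell markers summed to 0.456, 10.2, 47.9 and 147 CPM with Mcpt4 and Fcer1a at 0, and 1 of 3 tested rose. The 8 macrophage markers summed to 6.99, 40.6, 29.3 and 36.8 CPM, and none of the 5 tested rose or fell. Of the other marker lists, 2 of 3 mural genes (1 without the low-keratin cells), 1 of 2 Schwann cell genes and the 1 cartilage gene tested rose, while muscle, melanoblast, neuron and Merkel cell genes gave no call, although the 1 neuron gene tested rose without the low-keratin cells.

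The changes with age were compared with those in cells chosen by the same rule from the 4 KO libraries (107, 153, 17 and 54 cells), which share no library with the control arm. Over 11456 genes, 293 age effects differed between the arms (2.56%), 175 higher and 118 lower in control than in KO. Krt10 rose more in control (difference in log2 of 4.79 ± 0.93, edgeR adjusted p = 0.027). The difference did not pass without E13 WT (4.94, edgeR adjusted p = 0.086) or without E13 HET (4.73, edgeR adjusted p = 0.08). Krt10 stood at 37.8, 42.3, 44.9 and 217 CPM in E13 KO 1, E13 KO 2, E15 KO 1 and E15 KO 2. Krtdap and Dmkn were higher at E15 in both arms, with a smaller age effect in control. In KO cells Krtdap went from 3.78 and 5.97 CPM to 7947 and 9436 CPM (difference -3.99 ± 0.60, edgeR adjusted p = 0.012), and Dmkn from 0.397 and 0.663 CPM to 1646 and 3203 CPM (-4.27 ± 0.76, edgeR adjusted p = 0.022). Dmkn did not pass without E13 WT (-4.09, edgeR adjusted p = 0.059). Krt14 stood at 2.19, 3.81, 11.6 and 86.1 CPM in KO, and the difference between the arms in its age effect did not pass (-3.91 ± 0.99, edgeR adjusted p = 0.068) but did without E15 WT (-4.98, edgeR adjusted p = 0.016). At E13, 103 of 107 and 150 of 153 KO cells were low-keratin cells by the limit given above, so the compared classes differ in their basal keratins. At E15, 3 of 17 and 6 of 54 KO cells were low-keratin cells. The age effect in KO therefore sets mostly low-keratin cells at E13 against mostly other cells at E15. Without suprabasal cells the difference for Krt10 was -0.98, which the choice of those cells by Krt10 fixes.

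The changes were also compared with those of 1892 marker-negative cells from the same 4 control libraries, which share library, age and sex with the epithelial cells and were shallower per cell. Over 12762 genes, 519 age effects differed (4.07%), 276 higher and 243 lower in the epithelial cells. Krt10 rose more in the epithelial cells (difference in log2 of 4.59 ± 0.32, edgeR adjusted p = 4.2e-05) although it also went from 31.2 and 27.9 CPM to 120.2 and 69.5 CPM in marker-negative cells. Sbsn differed too (5.03 ± 0.24, edgeR adjusted p = 2.6e-06). Krtdap did not pass (1.04 ± 0.36, edgeR adjusted p = 0.15): it was 2.44, 1.68, 115 and 78.1 CPM in marker-negative cells, at a far lower level. Krtdap passed without E13 HET (1.18, edgeR adjusted p = 0.041) and without E15 HET (1.58, edgeR adjusted p = 0.00019). Without suprabasal cells the difference for Krtdap had the other sign (-1.495, edgeR adjusted p = 0.0054). That for Krt10 was -1.26, which the choice of cells fixes. Slc2a3 (-4.54), Rtn1 (-3.94) and Tmem108 (-3.22) fell more in the epithelial cells, where each had 3 UMIs at E15.

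**Figure D4:**
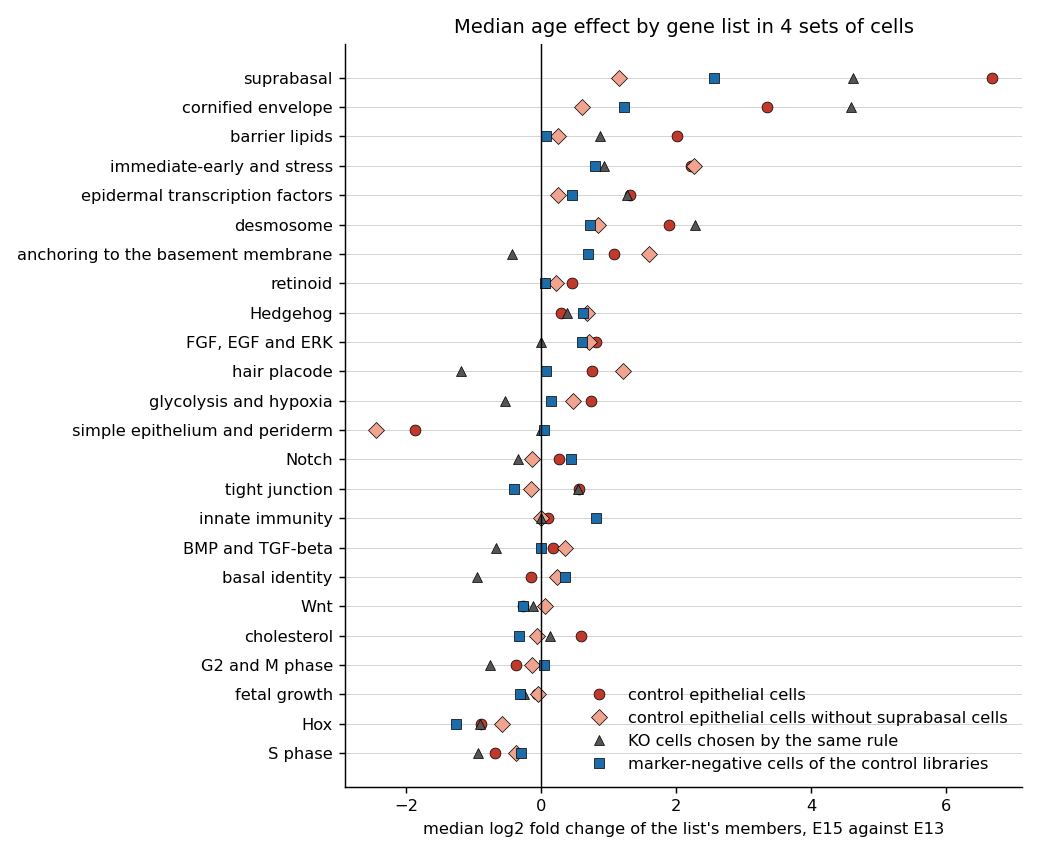
Median log2 fold change, E15 against E13, of each list's members tested in the control comparison, in control epithelial cells (red circles), the same without suprabasal cells (pale diamonds), KO cells of the same rule (grey triangles) and marker-negative control cells (blue squares). The suprabasal list's median is 6.67 in control epithelial cells, 1.14 without suprabasal cells, 4.62 in KO cells and 2.56 in marker-negative cells; the immediate-early and stress list's median is 2.22 and 2.26 with and without suprabasal cells.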

How the data were processed

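Single cells of embryonic mouse back skin were measured with a 10x 3′ kit, per the labels. The deposited values were counts, whole-number UMI counts per gene and barcode with no normalisation; the submitters' processing notes name Cell Ranger, Seurat and mm10 without versions, and the authors' barcode filter is not given in the sources used here. The table had 27998 genes, of which 25815 were autosomal by GENCODE M21 (GRCm38). Counts of the chosen cells were summed per library. The low-count filter was filterByExpr with its minimum of 10 counts, scaling used TMM factors, and quasi-likelihood F tests of edgeR 4.0.16 (R 4.3.3) were adjusted by Benjamini-Hochberg at 0.05. The SE is the absolute log2 fold change divided by the square root of F. CPM values are counts per 1000000 UMIs of a library's summed cells, without the TMM factor. DESeq2 1.42.0 was an alternative. Doublets were kept; Scrublet in scanpy 1.11.5 marked 3, 2, 0 and 1 of the chosen cells, and their removal was an alternative. Thinning drew 5000 UMIs per cell. The fits were tested on simulated counts.

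The members, gene lists and markers were chosen with earlier results of these data known. Named genes were the 5 markers and Trp63, up to 4 genes per list with the largest change in its commoner direction and up to 2 in the other, and the 15 largest rises and falls outside the 12 rule genes, each called, at 50 CPM or more at the higher age and without overlap between ages. Krt1, Krtdap, Dmkn, Sbsn, Krt15, Fos and genes named as list members were added after their values were seen. Some genes that this rule names are not reported here.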

Additional observations from a re-analysis of the deposited data

Results flagged for a closer look

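The age effect of 293 genes differed between control and KO cells by an interaction term in the edgeR fit, and the genes below were singled out by that test. The control minus KO differences in log2 age effect were 5.77 for Gjb2, 2.84 for Gjb6 and 3.90 for Igfbp2, which fell in both arms and further in KO cells. They were 4.79 for Krt10, 7.51 for Ndufa4l2 and 12.16 for Lhx2. Lhx2 had 1 UMI in the E13 control cells, so its fitted value is no bound. None of Gjb6, Krt10, Ndufa4l2 and Lhx2 passed without E13 WT (2.98, 4.94, 7.28 and 13.49) or without E13 HET (2.74, 4.73, 7.83 and 11.24). Differences below zero were -2.81 for Parm1, -6.11 for Rtn1, -3.99 for Krtdap, -4.27 for Dmkn and -4.93 for Krt15. Krt15, another keratin of basal cells, stood at 68.2 and 52.7 CPM in E13 KO cells and at 1866 and 2703 CPM in E15 KO cells, against 1139, 459, 1172 and 825 CPM in control. It is among the keratins of the low-keratin limit, below which most E13 KO cells and few E15 KO cells lay.

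The age effect of 519 genes differed between epithelial and marker-negative cells of the same control libraries. The epithelial minus marker-negative differences were 9.10 for Gsta1, 3.14 for Hbb-y, 4.59 for Krt10, 4.48 for Krt1, 5.03 for Sbsn, 8.30 for Lhx2 and 1.03 for Fos. They were -1.84 for Parm1, -3.94 for Rtn1, -4.54 for Slc2a3 and -3.22 for Tmem108. Parm1 did not pass without E13 WT (-1.51) or without E15 HET (-1.46). Rtn1, Slc2a3 and Tmem108 had 3 UMIs each in the E15 epithelial cells, so their values rest on low counts. The fitted values of Gsta1 and Lhx2 rest on counts at or near 0 at E13 and are no bounds. No group had enough libraries to look for a single library apart from the rest. Krtdap, Dmkn, Krt15, Krt1, Sbsn and Fos were added after their values were seen.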

How the results depend on the processing

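Of 91 named genes called in the age comparison, 53 were called in every one of the 19 alternatives in which they were tested and 76 in all 4 fits that leave out 1 library. The 91 include Cdh1, a rule gene, for which a call is no test. They also include Krt1, Krtdap, Dmkn, Sbsn, Fos and Atf3, which were added after their values were seen. Calls on E15 rest on 57 cells. The cause of each change below was not tested. The count of genes that rose (586) was 334 with at least 3 rule genes, 302 with cells thinned, 310 with sums thinned, 894 with a looser barcode filter, 346 without suprabasal cells, and 409 to 1093 when 1 library was left out. The count that fell (232) was 587 with all 8 libraries in the fit, 110 with at least 3 rule genes, 99 with cells thinned, 105 with sums thinned, 427 with the looser filter, and 102 to 797 when 1 library was left out.

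For control minus KO, the higher count (175) was 295 with DESeq2, 115 with at least 3 rule genes, 30 with cells thinned, 39 with sums thinned, 637 with no count filter, 400 without suprabasal cells, and 37 to 214 when 1 library was left out. The lower count (118) was 181 with DESeq2, 27 with cells thinned, 30 with sums thinned, 198 with the looser filter, 433 with no count filter, 418 without suprabasal cells, and 31 to 147 when 1 library was left out. For epithelial minus marker-negative cells, the higher count (276) was 48 with at least 3 rule genes, 168 with cells thinned, 119 with sums thinned, 590 with no count filter, and 167 to 514 when 1 library was left out. The lower count (243) was 88 with DESeq2, 159 with RLE scaling, 16 with at least 3 rule genes, 142 with cells thinned, 71 with sums thinned, 109 with a minimum count of 30, 529 with no count filter, and 81 to 612 when 1 library was left out.

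Shares of cells, as E15 minus E13 in percentage points, were 36.4 for Krt10 (15.0 with no thinning), 48.9 for Krt17 (19.1 with no thinning), 82.5 for Krtdap (72.2 at 2000 UMIs) and -63.6 for Gjb2 (-51.0 at 2000 UMIs, -39.8 with no thinning). For Krt14 the share was -6.16, and -19.5 at 2000 UMIs, -1.39 with no thinning, -9.27 with at least 3 rule genes and -19.6 with at least 6. Values called with all cells, or without suprabasal cells, that changed sign did so without suprabasal cells: Mvk -0.13 and Nrarp -0.18 with age; Krt10 -0.98 and Sbsn -2.999 in control minus KO; Krt10 -1.26, Krt1 -1.29 and Krtdap -1.495 in epithelial minus marker-negative cells. Suprabasal cells were chosen by Krt1 and Krt10, which fixes those 2 genes here. Krt14, not called, reached -0.57 with age when E15 WT was left out.

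Libraries share a genotype and a replicate number across ages, and the labels tie neither to a litter or batch. The difference between WT and HET at E13 and at E15 correlated with r = 0.09 across 10493 genes, which are not independent replicates. With genotype as a replicate block the fit called 694 higher and 324 lower genes, including 784 of the 818 main calls.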
